A study of Arabidopsis thaliana with 26 samples.

Results

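The question was how far the transcript response to high light at 72 h differed from the response at 0.5 h. The comparison is a difference of differences: the log2 ratio of high light to growth light at 72 h, minus the same ratio at 0.5 h. It uses 8 of the 26 libraries of the series, 2 in each of 4 groups, and no library belongs to more than 1 group. All groups were whole seedlings of Arabidopsis thaliana ecotype Col-0, with no mutation or transgene named, raised for 7 days in constant growth light of 60 µmol per square metre per second at 22 °C. The growth light groups stayed in that light for a further 0.5 or 72 h. The high light groups spent the same 0.5 or 72 h in 1200 µmol per square metre per second, with the leaf temperature held at 22 °C. Each library was made from 4 µg of RNA from 25 pooled plants. Whether replicates are separate cultures is not stated in the labels, and the p-values therefore reflect only how far these libraries spread, which may be technical. The seedlings were about 3 days older at the later time, and each light effect is set against growth light seedlings of the same age.

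Light in excess of what photosynthesis can use leads to reactive oxygen species, closure of stomata and a burst of stress hormone signalling that includes abscisic acid and jasmonate. Over days, leaves acclimate: they make less of the light-harvesting antenna, more of the proteins and pigments that dissipate or screen light, and more of the enzymes that store and move carbohydrate. In Arabidopsis, anthocyanin accumulation and ELIP proteins are common signs of that later state.

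The text uses CPM, a gene's count scaled to the library's total and by TMM factors, which even out differences in composition between libraries. Library values are given as replicate 1 and replicate 2, first for growth light and then for high light. A light effect is the log2 ratio of high light to growth light at 1 time, and the difference of effects is the effect at 72 h minus that at 0.5 h. A gene is called raised, lowered or different where the edgeR quasi-likelihood test gave a Benjamini-Hochberg adjusted p under 0.05 over all 21449 genes tested.

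The 8 libraries held 13637677 to 24974591 counts in genes, the fewest in replicate 1 of high light at 72 h and the most in replicate 2 of high light at 0.5 h. Replicates correlated across genes at 0.9926 to 0.997. The widest replicate gap was in growth light at 0.5 h, where the median size of the log2 difference between the 2 libraries was 0.158 over all tested genes, against 0.0918 to 0.109 in the other 3 groups. Reads from chloroplast genome genes made up 301 and 224 CPM under growth light against 1062 and 759 under high light at 0.5 h, then 121 and 116 against 142 and 147 at 72 h. The part of this difference in the results below was not tested.

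The light effect differed between 0.5 and 72 h in 6565 genes, 30.6% of those tested: it was higher at 72 h in 2807 genes (13.1%) and lower in 3758 (17.5%). Among these, 703 higher (3.28%) and 1704 lower genes (7.94%) differed by at least 2-fold. At 0.5 h, 2892 genes were raised (13.5%) and 1779 lowered (8.29%), and at 72 h, 4780 were raised (22.3%) and 4787 lowered (22.3%). A 2-fold change was reached by 1017 raised (4.74%) and 315 lowered genes (1.47%) at 0.5 h, and by 1194 (5.57%) and 1669 (7.78%) at 72 h. With upper-quartile scaling, raised genes were 51.9% of the calls at 0.5 h, against 61.9% with TMM scaling. Without replicate 1 of high light at 0.5 h, 1108 genes were called lowered at that time.

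Of the 2892 genes raised at 0.5 h, 1202 (41.6%) were raised at 72 h too, 1346 (46.5%) were not past the test and 344 (11.9%) were lowered. Of the 1779 genes lowered at 0.5 h, 1054 (59.2%) were lowered at 72 h too, 599 (33.7%) were not past the test and 126 (7.08%) were raised. Among the 1202 genes raised at both times, the effect was larger at 72 h in 185 and smaller in 264, with no difference called in 753. Among the 1054 lowered at both, it was stronger at 72 h in 319 and weaker in 59. Genes that passed the test only at 72 h and also differed between times numbered 2035 raised and 1882 lowered. Across all tested genes the 2 effects had a Pearson r of 0.348 and a Spearman rho of 0.313, a description over genes, which are not independent replicates.

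**Figure D1:**
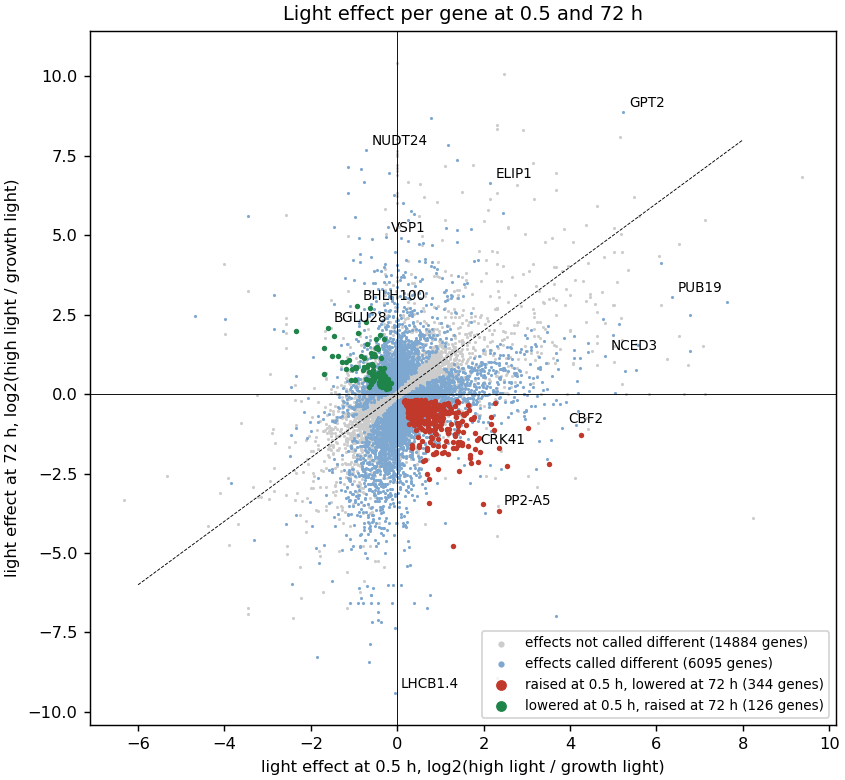
Light effect at 72 h (vertical axis, log2 of high light over growth light) against that at 0.5 h (horizontal axis, same unit) for each of the 21449 tested genes, with the dashed line marking equal effects. The 344 genes raised and then lowered fill the lower right part and the 126 lowered and then raised the upper left part. LHCB1.4 and VSP1 lie near 0 at 0.5 h and far from it at 72 h. NUDT24 lies far above 0 at 72 h, and its place at 0.5 h rests on few reads.

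High light libraries moved in more genes than growth light libraries. Between 0.5 and 72 h, 11787 genes changed within high light (55% of those tested) and 3058 within growth light (14.3%). Among the genes whose light effect rose, high light changed by more than growth light in 2510 of 2807, and among those whose effect fell, in 3431 of 3758. Over all tested genes the high light change was the larger in 72.9%. The 2 changes share no library with each other, but each shares libraries with the light effects.

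Among the largest drops in the light effect was that of an antenna gene. LHCB1.4 encodes an isoform of the main trimeric antenna protein of photosystem II. It had 1980 and 2860 CPM under growth light against 2360 and 2320 under high light at 0.5 h, then 1130 and 1230 against 1.41 and 1.98 at 72 h. The high light libraries at 72 h lay far below the other 6, and the groups at 0.5 h overlapped. The rule for the largest differences asked that the light groups be apart at the time of the larger effect. For LHCB1.4, the difference of effects was -9.36 (SE 0.36, adjusted p = 2.27e-13), from a light effect of -0.05 at 0.5 h. LHCB1 genes are near-identical copies, so the split of reads between them is uncertain. AT3G16670, annotated as a Pollen Ole e 1 allergen and extensin family protein, had 114 and 128 CPM under growth light against 89.2 and 88.2 under high light at 0.5 h, then 63.8 and 61.7 against 1.01 and 0.375 at 72 h. Its high light libraries at 72 h stood far below the other 6, and the difference of effects was -6.12 (SE 0.45, adjusted p = 1.56e-09). AT3G55240, of unknown function, and DOT3, an NPH3 family protein, had 2 counts each over both high light libraries at 72 h. AT3G55240 fell from 366 counts in growth light to 2 in high light at 72 h, a ratio of 0.00588 (exact 95% interval 0.000709 to 0.0214, counting error only). DOT3 fell from 209 to 2 counts, a ratio of 0.0103 (exact 95% interval 0.00124 to 0.0376).

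The largest gains were in genes with low values in the other 3 groups. The choice asked for 5 CPM in the highest group only and ranked by log2 difference, which favours such genes. It also asked that the light groups be apart at the time of the larger effect. NUDT24, a nudix hydrolase, had 0.898 and 0 CPM under growth light against 0.362 and 0.171 under high light at 0.5 h, then 1.71 and 4.96 against 694 and 663 at 72 h. Both high light libraries at 72 h lay far above the other 6, and the difference of effects was 8.41 (SE 1.68, adjusted p = 0.000556). That difference rests on 1 library at 0.5 h: without replicate 1 of growth light at 0.5 h no read was left in that group and the adjusted p was 0.961, while the 72 h effect alone was 7.68 (SE 0.32, adjusted p = 6.9e-14). AT1G62420, annotated as a DUF506 family protein, had 1.01 and 1.35 CPM under growth light against 0.906 and 1.15 under high light at 0.5 h, then 0.513 and 0.303 against 54.5 and 49.8 at 72 h. Again only the last group was high, with a difference of effects of 7.16 (SE 0.57, adjusted p = 4.64e-09). HSP17.4, a small cytosolic heat shock protein, had 0.281 and 0.324 CPM under growth light against 0.181 and 0.385 under high light at 0.5 h, then 0.171 and 0.363 against 22.8 and 18.6 at 72 h. For HSP17.4, the difference of effects was 6.34 (SE 1.56, adjusted p = 0.0035). HSP17.6A, of the same family, rose from 1 count in growth light to 478 in high light at 72 h, a ratio of 514 (exact 95% interval 91.8 to 20348). AT4G12735, an uncharacterized protein, rose from 1 to 269 counts, a ratio of 289 (exact 95% interval 51.5 to 11470). For HSP17.6A and AT4G12735 the difference of effects had an adjusted p of 0.018 and 0.00656, and of 0.0626 and 0.0502 without replicate 1 of growth light at 0.5 h. Without replicate 2 of that group, that of HSP17.6A was 0.132.

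The genes that turned round came in a larger and a smaller set. The larger set, raised at 0.5 h and lowered at 72 h with a called difference, held 344 genes (1.6% of those tested). Its median light effect was 0.61 at 0.5 h and -0.57 at 72 h, and 44 genes (0.205%) passed a 2-fold change at both times. The smaller set, lowered and then raised, held 126 genes (0.587%), with medians of -0.40 and 0.49 and 9 genes past 2-fold at both times (0.042%). These sets were defined by the 2 effects, so their sizes and directions are a description. They moved with the library set: the larger held 263 to 423 genes and the smaller 69 to 161 when 1 library was left out, with 69 without replicate 1 of high light at 0.5 h, and the smaller set held 190 genes with upper-quartile scaling and 196 with a filter of 1 CPM in 2 libraries. In growth light at 0.5 h, replicate 2 was above replicate 1 in 252 of the 344 genes (73.3%) and in 42 of the 126 (33.3%), against 51.1% of all tested genes. The part of this replicate gap in the sets was not tested. Left out in turn, replicates 1 and 2 of that group gave 302 and 423 genes raised then lowered, of which 246 and 295 were among the 344. Just inside the threshold at 72 h lay HK1 and MYB51, with effects of -0.19 and -0.38, and just outside lay AT1G74440 and AT1G35350, with -0.86 and -0.45. In the other direction CYP90D1 and RBL12 lay just inside (0.24 and 0.19), and AT4G21620 and ATL63 just outside (0.26 and 0.46).

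Libraries that the definition did not use show when the turn came. Of the 344 genes, 119 were already lowered at 6 h, 198 at 12 h, 211 at 24 h and 237 at 48 h, and 45, 15, 23 and 0 were still or again raised at those times. Among all tested genes 18.2% were lowered at 6 h, 21.1% at 12 h, 23.9% at 24 h and 23% at 48 h. The first call in the later direction fell at 6 h for 119 genes, at 12 h for 95, at 24 h for 40, at 48 h for 40 and at 72 h for 50. Of the 126 genes of the smaller set, 55 were raised at 6 h, 52 at 12 h, 58 at 24 h and 88 at 48 h, while 33, 32, 13 and 5 were lowered. All tested genes were raised in 22.9%, 24.1%, 26% and 24.5% at these times. After 14 h back in growth light, 121 of the 344 genes were below growth light seedlings of 72 h and 5 above, and 38 of the 126 were above and 4 below, where 6.57% of all tested genes were below and 5.03% above. The recovery comparison shares its growth light libraries with the 72 h effect, so these counts are set beside it and not used as support. Recovery libraries are listed at 72 h plus 14 h of recovery, so those seedlings were also 14 h older than the growth light ones.

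**Figure D2:**
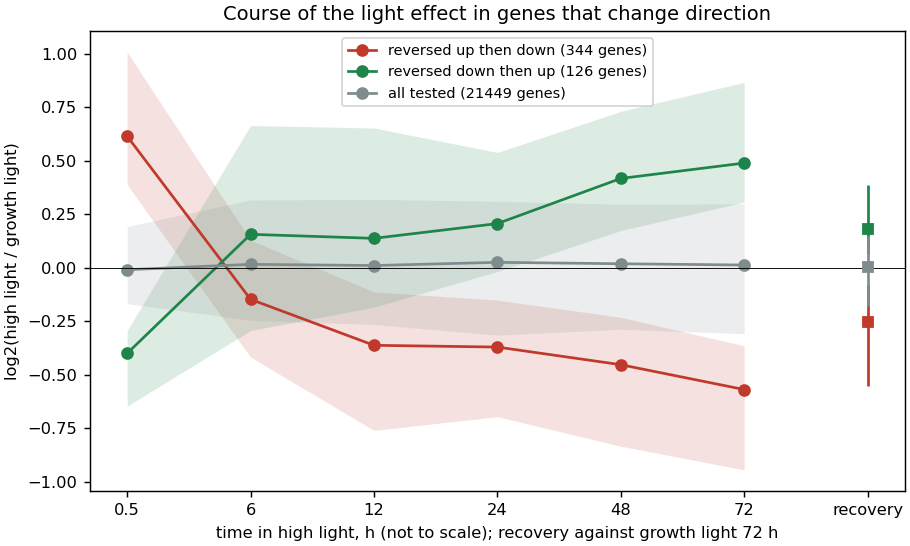
Median light effect (vertical axis, log2 of high light over growth light) at 0.5, 6, 12, 24, 48 and 72 h (horizontal axis, not to scale) and, as squares, of recovery against growth light at 72 h, for the 344 genes raised then lowered, the 126 lowered then raised and all tested genes; shading and bars span the quartiles. The larger set crosses 0 between 0.5 and 6 h and reaches a median of -0.57 at 72 h, and its ends at 0.5 and 72 h are fixed by how it was chosen.

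In 330 of the 344 genes (95.9%) and 117 of the 126 (92.9%), high light changed by more between 0.5 and 72 h than growth light did. This was so in 91.3% of all genes with a lower difference and 89.4% of those with a higher one. Over all tested genes it was so in 72.9%. The sets were chosen by values of the same libraries, so these shares are a description. Growth light itself changed in 28.2% and 20.6% of the 2 sets, against 14.3% of all tested genes. Protein descriptions that contain the word kinase made up 41 of the 344 genes (11.9%), against 5.47% of all tested genes, 8.47% of those raised at 0.5 h and 7.14% of those lowered at 72 h. Leucine-rich repeat stood in 10 descriptions (2.91%). Such descriptions were 0.876% of all tested genes, 1.0% of those raised at 0.5 h and 1.94% of those lowered at 72 h. Lectin stood in 7 (2.03%, against 0.587%, 0.864% and 1.0% in the same order). Calmodulin stood in 5 (1.45%, against 0.261%, 0.899% and 0.313%). Ankyrin stood in 4 (1.16%, against 0.331%, 0.657% and 0.292%). Descriptions with WRKY made up 0, against 0.284%, 0.726% and 0.209%. Disease resistance made up 7 (2.03%, against 0.751%, 1.9% and 0.815%). Zinc, transporter, P450 and auxin made up 1.45%, 1.45%, 0.581% and 0.581%, below their 2.4%, 1.86%, 0.89% and 0.625% of all tested genes. UDP made up 0.872%, against 0.741% of all tested genes. Basic helix-loop-helix stood in 4 of the 126 (3.17%, against 0.466%). A description can hold several of these words, so the counts can overlap, and a word match does not fix the type of protein. The words were chosen after the values were seen and carry no test.

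Promoters of 4 genes that turned are printed to show where named motifs lie, from 250 bases before to 50 after the annotated start in the RefSeq annotation of build TAIR10.1, 5′ to 3′ on the gene's strand, with genes looked up by locus. Capitals mark matches, on either strand, to the G-box (CACGTG), the abscisic acid response element (ACGTGTC, which overlaps a G-box when a C stands before it), the W-box core (TTGAC), the dehydration response core (CCGAC), the evening element core (AATATCT) and the heat shock element (GAANNTTC). CRK41 (AT4G00970, chr4:418077-418376, plus strand) and PP2-A5 (AT1G65390, chr1:24292122-24292421, plus strand) were raised and then lowered. BHLH100 (AT2G41240, chr2:17199405-17199704, minus strand) and BHLH101 (AT5G04150, chr5:1139584-1139883, minus strand) were lowered and then raised.
CRK41: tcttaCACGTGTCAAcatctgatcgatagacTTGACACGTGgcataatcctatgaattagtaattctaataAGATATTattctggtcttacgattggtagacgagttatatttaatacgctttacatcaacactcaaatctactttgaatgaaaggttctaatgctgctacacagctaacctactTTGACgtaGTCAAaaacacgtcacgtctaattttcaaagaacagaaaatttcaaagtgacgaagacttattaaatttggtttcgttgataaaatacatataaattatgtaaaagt
PP2-A5: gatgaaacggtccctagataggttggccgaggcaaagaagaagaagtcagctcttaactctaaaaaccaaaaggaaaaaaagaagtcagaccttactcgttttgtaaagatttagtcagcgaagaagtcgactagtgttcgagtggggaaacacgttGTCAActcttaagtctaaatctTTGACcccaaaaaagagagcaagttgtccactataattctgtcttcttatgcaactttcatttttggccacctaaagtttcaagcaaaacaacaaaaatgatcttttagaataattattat
BHLH100: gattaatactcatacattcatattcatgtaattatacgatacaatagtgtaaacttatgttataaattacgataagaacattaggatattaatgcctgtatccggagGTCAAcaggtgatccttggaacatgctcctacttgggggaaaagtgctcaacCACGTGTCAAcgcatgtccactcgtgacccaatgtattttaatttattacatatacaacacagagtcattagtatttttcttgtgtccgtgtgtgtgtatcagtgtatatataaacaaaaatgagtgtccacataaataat
BHLH101: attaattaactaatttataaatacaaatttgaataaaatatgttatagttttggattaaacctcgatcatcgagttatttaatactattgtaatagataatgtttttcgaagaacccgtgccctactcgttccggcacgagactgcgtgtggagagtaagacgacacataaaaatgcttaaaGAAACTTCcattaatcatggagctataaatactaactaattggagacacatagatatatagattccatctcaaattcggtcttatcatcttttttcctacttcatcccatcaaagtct
The CRK41 window holds 2 G-boxes, each overlapping an abscisic acid response element, 4 W-box cores and 1 evening element core. PP2-A5 holds 2 W-box cores and no other match. BHLH100 holds 1 G-box with an overlapping abscisic acid response element and 2 W-box cores, and BHLH101 holds 1 heat shock element. A G-box lay in 8.79% of the 21015 tested genes with a promoter window, in 11.2% of the raised-then-lowered genes and in 4.76% of the lowered-then-raised genes. It lay in 16.8% of all genes raised at 0.5 h and in 19.6% of those raised at both times. The abscisic acid response element lay in 4.98% of all windows, 8.53% of the raised-then-lowered and 5.56% of the lowered-then-raised genes. It lay in 10.7% of all genes raised at 0.5 h and in 12.8% of those raised at both times. The W-box core, a short motif, lay in 51% of all windows in 59.4% of the raised-then-lowered and in 47.6% of the lowered-then-raised genes. It lay in 57.8% of all genes raised at 0.5 h and in 56% of those raised at both times. A match is a description of letters and not a binding site.

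Among the 8 raised-then-lowered genes named for the largest effects at both times, PP2-A5, a phloem lectin, had 5.11 and 11.7 CPM under growth light against 43 and 42.7 under high light at 0.5 h, then 2.11 and 2.6 against 0.269 and 0.107 at 72 h. The groups did not overlap at either time, and high light was the highest group at 0.5 h and the lowest at 72 h. Its effects were 2.35 (SE 0.30, adjusted p = 2.71e-06) and -3.67 (SE 0.91, adjusted p = 0.00233), and their difference was -6.02 (SE 0.90, adjusted p = 2.23e-05). The size of the 72 h effect rests on few reads. In replicates 1 and 2 of high light at 72 h, 3 counts equal 0.22 and 0.175 CPM before TMM scaling. CRK41, a cysteine-rich receptor-like kinase, had 10.6 and 22.4 CPM under growth light against 59.8 and 55.4 under high light at 0.5 h, then 5.93 and 6.53 against 1.61 and 2.09 at 72 h. The same order held, and in both genes replicate 2 of growth light at 0.5 h was more than 2-fold above replicate 1. Its effects were 1.80 (SE 0.20, adjusted p = 2.36e-07) and -1.73 (SE 0.36, adjusted p = 0.000454), and in libraries not used to choose it the effect was -1.75 (adjusted p = 2.44e-05) at 48 h.

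IGMT1, an O-methyltransferase that modifies indole glucosinolates, had 4.38 and 12.6 CPM under growth light against 28.9 and 26.1 under high light at 0.5 h, then 9.52 and 9.08 against 2.82 and 2.14 at 72 h. High light was again above growth light at 0.5 h and below it at 72 h in every library, and the difference of effects was -3.60 (SE 0.52, adjusted p = 1.51e-05). AT4G18205, annotated as a nucleotide-sugar transporter family protein, had 18.1 and 30.5 CPM under growth light against 80.6 and 76.3 under high light at 0.5 h, then 18.7 and 19.8 against 4.98 and 4.66 at 72 h. Its growth light libraries at 72 h lay within the range of those at 0.5 h, high light was the highest group at 0.5 h and the lowest at 72 h, and the difference was -3.69 (SE 0.23, adjusted p = 1.99e-10). AT5G28630, a glycine-rich protein, had 3.93 and 8.1 CPM under growth light against 20.8 and 18.5 under high light at 0.5 h, then 3.08 and 2.54 against 0.471 and 0.75 at 72 h. For AT5G28630, the difference of effects was -3.86 (SE 0.44, adjusted p = 6.36e-07). The ankyrin repeat genes AT5G54720 and AT1G10340 had effects of 1.92 at 0.5 h and -1.81 at 72 h, and 1.65 at 0.5 h and -1.64 at 72 h. AT5G54720 lies next in locus number to AT5G54710, an ankyrin repeat gene that also turned, with effects of 1.89 at 0.5 h and -1.39 at 72 h. AT1G24147, uncharacterized, had 0.955 and 1.46 CPM under growth light against 4.8 and 4.83 under high light at 0.5 h, then 5.3 and 6.53 against 0.605 and 0.482 at 72 h, so growth light was higher at 72 h than at 0.5 h and high light lower. For all 8 genes the 48 h effect was below 0, from -2.63 in AT1G24147 to -0.84 in AT1G10340, and it passed the test in each except PP2-A5, with -1.0 (adjusted p = 0.346).

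Of the 8 lowered-then-raised genes named by the same rule, 2 belong to the iron list. BHLH100, one of the transcription factors that plants raise when short of iron, had 93.7 and 78 CPM under growth light against 31.4 and 58.8 under high light at 0.5 h, then 58.3 and 70.7 against 454 and 434 at 72 h. High light was below growth light at 0.5 h and far above it at 72 h, without overlap at either time. The effects were -0.92 (SE 0.22, adjusted p = 0.00331) and 2.78 (SE 0.22, adjusted p = 1.43e-09), with a difference of 3.71 (SE 0.31, adjusted p = 1.09e-08). BHLH101, of the same subgroup, had 16.6 and 14 CPM under growth light against 4.03 and 7.05 under high light at 0.5 h, then 9.12 and 9.62 against 33.4 and 33.7 at 72 h. Its groups did not overlap at either time, and the difference was 3.3 (SE 0.27, adjusted p = 7.51e-09). BGLU28, a beta-glucosidase known for its rise in sulfur-poor plants, had 1.63 and 1.19 CPM under growth light against 0.453 and 0.47 under high light at 0.5 h, then 3.99 and 4.96 against 20.8 and 17.3 at 72 h. Growth light was higher at 72 h than at 0.5 h and high light more so, for a difference of 3.68 (SE 0.61, adjusted p = 7.18e-05), while after recovery the log2 ratio to growth light was -2.66 (SE 0.43, adjusted p = 0.000266).

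AT4G31330, a putative transmembrane protein, had 3.09 and 3.62 CPM under growth light against 0.906 and 1.15 under high light at 0.5 h, then 4.27 and 5.51 against 14.4 and 12.5 at 72 h. For AT4G31330, the difference of effects was 3.15 (SE 0.30, adjusted p = 6.24e-08). AT5G65040, a senescence-associated DUF581 protein, had 4.27 and 5.08 CPM under growth light against 1.59 and 1.71 under high light at 0.5 h, then 4.39 and 4.78 against 11.2 and 10 at 72 h. For AT5G65040, the difference of effects was 2.71 (SE 0.25, adjusted p = 4.48e-08). High light was the lowest group at 0.5 h and the highest at 72 h in both. SPL4, a squamosa promoter binding protein-like factor that promotes phase change and flowering, had effects of -1.11 at 0.5 h and 1.06 at 72 h. SAUR36, an auxin-responsive SAUR protein, had effects of -1.28 at 0.5 h and 1.02 at 72 h, and AT5G38000, a zinc-binding dehydrogenase family member, -1.18 at 0.5 h and 1.02 at 72 h. All 8 genes were raised at 48 h, by 0.62 in AT5G65040 to 3.04 in BGLU28.

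**Figure D3:**
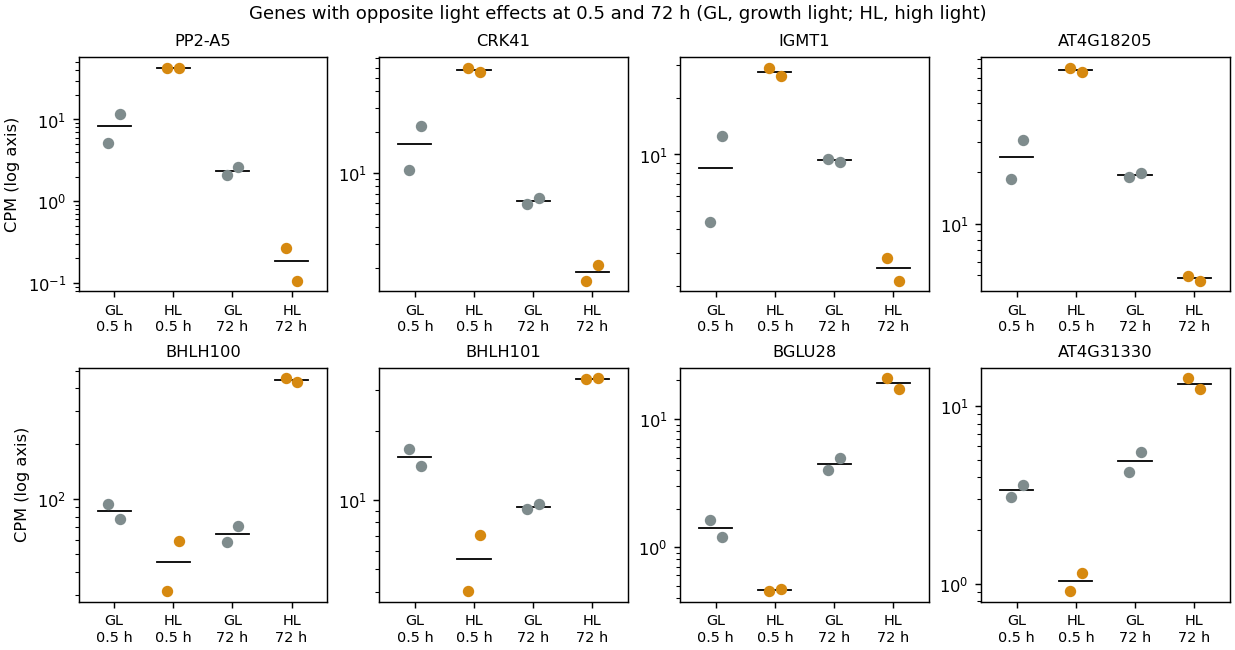
CPM (vertical axes, log scale) in each of the 8 libraries for 4 genes raised then lowered (top) and 4 lowered then raised (bottom); points are libraries and bars group means, with growth light grey and high light orange. In the top row high light is the highest group at 0.5 h and the lowest at 72 h, and in the bottom row the reverse holds for the group means. The choice of the genes fixes on which side of growth light high light lies at each time, and not its rank among all groups.

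The iron list was the list with the largest share of called members: all 15 of its tested genes differed between times, 9 higher and 6 lower, with a median difference of 0.95 against -0.02 over all tested genes. At 0.5 h, 7 members were lowered and 0 raised, and at 72 h, 8 were raised and 7 lowered. Over all tested genes, 8.29% were lowered and 13.5% raised at 0.5 h, and 22.3% were called each way at 72 h. Their difference was higher in 13.1% and lower in 17.5%. BHLH100, BHLH101, PYE, BTS and NAS4 turned from lowered to raised. BTS, an E3 ligase that restrains the iron deficiency response, had 610 and 567 CPM under growth light against 347 and 480 under high light at 0.5 h, then 368 and 406 against 855 and 913 at 72 h. For BTS, the difference of effects was 1.70 (SE 0.16, adjusted p = 6.79e-08). PYE, a transcription factor of iron homeostasis, had 41.4 and 33.7 CPM under growth light against 23 and 28.2 under high light at 0.5 h, then 24 and 28.9 against 48.9 and 48.5 at 72 h. For PYE, the difference of effects was 1.43 (SE 0.16, adjusted p = 3.95e-07). NAS4, which makes the metal chelator nicotianamine, had effects of -0.43 at 0.5 h and 1.42 at 72 h. BHLH38 and BHLH39, of the BHLH100 subgroup, were not past the test at 0.5 h (-0.54 and -0.44) and were raised at 72 h by 2.70 and 2.07, and OPT3, a transporter that loads iron into the phloem, was raised by 0.96 at 72 h only.

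Ferritins and the root uptake genes were lowered at 72 h. Of the 15 iron genes, 7 were lowered at 72 h and 6 had a lower difference. Thus not every gene lowered at 72 h had a lower effect then than at 0.5 h. FER4, a ferritin that stores iron, had 12.4 and 13.1 CPM under growth light against 19.2 and 11.2 under high light at 0.5 h, then 20.7 and 17.4 against 2.56 and 2.04 at 72 h. The light groups overlapped at 0.5 h and at 72 h high light was far lower, with a difference of -3.32 (SE 0.36, adjusted p = 3.42e-07). FER1 and FER3 were lowered at 72 h, with effects of -0.83 and -1.20. IRT1 and FRO2, the iron transporter and the ferric reductase of the root epidermis, had effects of -0.46 at 0.5 h and -3.27 at 72 h, and of -0.39 at 0.5 h and -2.25 at 72 h. FRO6, a ferric reductase of the shoot, had -0.51 at 0.5 h and -3.0 at 72 h, both past the test. After recovery 9 iron genes were above growth light and 4 below, with BHLH100 at 3.13 (SE 0.23, adjusted p = 4.85e-09). Of all tested genes, 5.03% were above and 6.57% below.

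**Figure D4:**
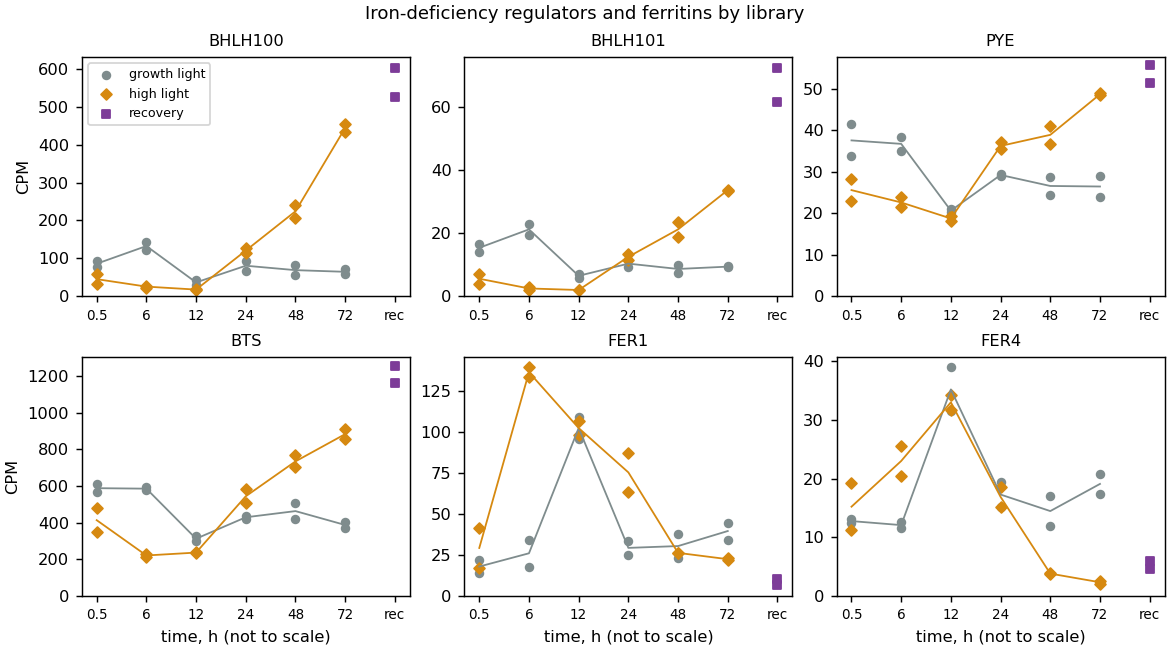
CPM (vertical axes, from 0) in each library over time (horizontal axes, not to scale) for 4 iron deficiency genes and 2 ferritins; grey circles are growth light, orange diamonds high light, lines join group means, and squares are recovery libraries. BHLH100, BHLH101 and BTS lie below growth light at 0.5 and 6 h and above it at 48 and 72 h, and FER4 lies below growth light at 48 and 72 h.

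Root marker genes moved with the root uptake genes. The 7 root hair markers summed to 65.6 and 77.7 CPM under growth light against 40.5 and 36.7 under high light at 0.5 h, then 67.1 and 60.1 against 7.06 and 11.7 at 72 h. None of the 7 was at 0 in any of these libraries. LRX1, a root hair wall protein, had 19.1 and 19.7 CPM under growth light against 11.9 and 9.79 under high light at 0.5 h, then 16.5 and 13.3 against 1.01 and 1.77 at 72 h. For LRX1, the difference of effects was -2.54 (SE 0.54, adjusted p = 0.00107). PRP3, a proline-rich wall protein of root hairs, had 27 and 34.5 CPM under growth light against 14.1 and 14 under high light at 0.5 h, then 25 and 24 against 1.82 and 3.21 at 72 h. For PRP3, the difference of effects was -2.11 (SE 0.42, adjusted p = 0.000577). Of the root hair markers, 4 were lowered at 0.5 h and 7 at 72 h, and 5 differed between times, with a median difference of -1.95. Lowered genes were 8.29% of all tested genes at 0.5 h and 22.3% at 72 h. The 8 endodermis markers summed to 31.8 and 47.9 CPM under growth light against 39.1 and 31.6 under high light at 0.5 h, then 56.9 and 51.6 against 15.8 and 15.2 at 72 h. Of these, 0 were lowered at 0.5 h and 6 at 72 h, and 5 differed, among them CASP1 with -1.98 (SE 0.37, adjusted p = 0.000266) and CASP2 with -2.44 (SE 0.34, adjusted p = 1.11e-05), proteins of the Casparian strip. In whole seedlings, fewer cells of a type and less RNA per cell cannot be told apart, and the part of these markers in the fall of IRT1 and FRO2 was not tested. The 5 xylem markers had 2 lower differences, XCP1 at -0.69 (SE 0.15, adjusted p = 0.00154) and XCP2 at -0.39 (SE 0.11, adjusted p = 0.00933), and the 8 stomatal lineage markers had 1, POLAR at -0.83 (SE 0.26, adjusted p = 0.0182). A lower difference was called in 17.5% of all tested genes, near the share of the stomatal lineage markers. XCP2 missed the threshold without replicate 1 of growth light at 0.5 h or of high light at 72 h, and POLAR without any of 4 single libraries. Of 6 seed storage and 4 floral markers only 2 each were tested, and none passed at either time.

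Most abscisic acid genes were raised at both times, and less at 72 h. Of 18 synthesis and feedback genes, 17 were raised at 0.5 h, 15 at 72 h and 14 at both times, and the difference was lower in 13 and higher in 0, with a median difference of -0.72. All tested genes had shares of 13.5%, 22.3%, 5.6%, 17.5% and 13.1% in that order. NCED3, the rate-limiting enzyme of abscisic acid synthesis under stress, had 4.6 and 5.4 CPM under growth light against 133 and 149 under high light at 0.5 h, then 4.16 and 3.45 against 9.75 and 8.04 at 72 h. High light was above growth light in every library at both times, and the difference of effects was -3.60 (SE 0.34, adjusted p = 4.57e-08). PUB19, a U-box E3 ligase of abscisic acid signalling, had 3.59 and 2.21 CPM under growth light against 229 and 250 under high light at 0.5 h, then 2.34 and 2.54 against 20.9 and 19.9 at 72 h. For PUB19, the difference of effects was -3.31 (SE 0.39, adjusted p = 1.32e-06). ABI1 and PP2CA, phosphatases that hold the pathway in check, had effects of 2.18 at 0.5 h and 0.86 at 72 h, and 2.71 at 0.5 h and 0.67 at 72 h. HAI1 and HAI2, of the same phosphatase family, had effects of 4.31 at 0.5 h and 3.56 at 72 h, and 4.78 at 0.5 h and 4.32 at 72 h, with no difference past the test. PUB18, the close relative of PUB19, turned: it had 2.02 and 1.57 CPM under growth light against 4.98 and 4.91 under high light at 0.5 h, then 2.34 and 2.54 against 0.74 and 0.964 at 72 h. For PUB18, the difference of effects was -2.96 (SE 0.34, adjusted p = 8.15e-07).

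Most dehydration output genes were raised at both times. Of 16, 15 were raised at 0.5 h, 12 at 72 h and 11 at both times, and the difference was lower in 9, with a median of -1.04. Over all tested genes these shares were 13.5%, 22.3%, 5.6% and 17.5%. ERD10, a dehydrin, had 80.1 and 95.5 CPM under growth light against 618 and 521 under high light at 0.5 h, then 103 and 98.3 against 94.5 and 94.2 at 72 h. The light effect did not pass the test at 72 h, with a difference of -2.79 (SE 0.16, adjusted p = 5.49e-11). COR15B, a chloroplast cold-protection protein, had 5.28 and 1.35 CPM under growth light against 43 and 40.6 under high light at 0.5 h, then 21.9 and 17.7 against 16.9 and 18.1 at 72 h; the growth light level itself was higher at 72 h, and the difference was -3.84 (SE 0.49, adjusted p = 3.05e-06). RD29A, a reporter gene of dehydration and abscisic acid signalling, had 41.6 and 41.2 CPM under growth light against 404 and 397 under high light at 0.5 h, then 39.2 and 34.2 against 79.3 and 85.7 at 72 h. For RD29A, the difference of effects was -2.11 (SE 0.23, adjusted p = 3.14e-07). RD20, a caleosin, had 6.10 at 0.5 h and 4.14 at 72 h, while NAC019 and DREB2A, transcription factors of the same response, had 3.58 at 0.5 h and 4.91 at 72 h, and 1.90 at 0.5 h and 1.80 at 72 h, with no called difference. The dehydrin COR47 turned, with 184 and 261 CPM under growth light against 529 and 460 under high light at 0.5 h, then 253 and 250 against 109 and 120 at 72 h.

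Most early stress transcription factors had a smaller effect at 72 h. Of 28, 25 were raised at 0.5 h and 13 at 72 h, and the difference was lower in 18 and higher in 2, with a median of -1.59. All tested genes were raised in 13.5% and 22.3%, and their difference was lower in 17.5% and higher in 13.1%. CBF2, an activator of cold and dehydration genes, had 0.505 and 1.03 CPM under growth light against 10.1 and 11.8 under high light at 0.5 h, then 0.285 and 0.484 against 0.202 and 0.161 at 72 h. High light at 0.5 h lay far above the other 3 groups, with a difference of -4.89 (SE 0.66, adjusted p = 6.84e-06). WRKY40, a repressor in abscisic acid and defence signalling, had 1.57 and 3.89 CPM under growth light against 38.3 and 28.3 under high light at 0.5 h, then 2.74 and 1.82 against 2.15 and 1.55 at 72 h. For WRKY40, the difference of effects was -3.92 (SE 0.52, adjusted p = 5.14e-06). ZAT10, a zinc finger factor of light and salt stress, had 4.6 and 7.07 CPM under growth light against 33.2 and 31 under high light at 0.5 h, then 3.19 and 3.63 against 6.79 and 4.98 at 72 h. For ZAT10, the difference of effects was -1.68 (SE 0.25, adjusted p = 2.26e-05). AZF1, a related zinc finger factor, turned, at 1.07 at 0.5 h and -1.81 at 72 h. The 2 with a higher difference were ZAT12, with 1.25 at 0.5 h and 3.02 at 72 h, and DREB19, with 0.82 at 0.5 h and 4.70 at 72 h. In growth light, 9 of these 28 genes were themselves lower at 72 h than at 0.5 h and 0 were higher, against 8.09% and 6.17% of all tested genes.

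Of 25 jasmonate genes, 19 were raised at 0.5 h, 15 at 72 h and 11 at both times, and the difference was lower in 10 and higher in 5. The shares over all tested genes were 13.5%, 22.3%, 5.6%, 17.5% and 13.1% in that order. JAZ1, a repressor that jasmonate itself raises, had 15 and 18.3 CPM under growth light against 71.7 and 62.6 under high light at 0.5 h, then 17.4 and 17.2 against 21.7 and 22.3 at 72 h. High light was above growth light without overlap at both times, and the effect at 72 h did not pass the test, with a difference of -1.66 (SE 0.21, adjusted p = 3.82e-06). LOX3 and LOX4, lipoxygenases of jasmonate synthesis, had 2.25 at 0.5 h and 1.29 at 72 h, and 3.67 at 0.5 h and 1.29 at 72 h. Other members gained by 72 h. VSP1, a vegetative storage protein and jasmonate output, had 11.6 and 15.8 CPM under growth light against 11.9 and 10.9 under high light at 0.5 h, then 35.6 and 42 against 1130 and 1250 at 72 h. For VSP1, the difference of effects was 5.21 (SE 0.36, adjusted p = 6.81e-10). VSP2 had 21.7 and 12.1 CPM under growth light against 30.5 and 33.9 under high light at 0.5 h, then 109 and 114 against 1650 and 1750 at 72 h. For VSP2, the difference of effects was 3.0 (SE 0.34, adjusted p = 6.15e-07); the pair are near-identical copies, so reads may be split between them. LOX2, a chloroplast lipoxygenase, had 467 and 259 CPM under growth light against 361 and 358 under high light at 0.5 h, then 1170 and 1270 against 3760 and 4110 at 72 h. Its growth light replicates at 0.5 h lay on both sides of the high light ones, and the difference was 1.71 (SE 0.28, adjusted p = 7.27e-05).

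Salicylic acid and defence genes changed in part. Of 18, 6 were raised and 0 lowered at 0.5 h, 0 raised and 6 lowered at 72 h, and 10 had a lower difference, with a median of -0.98. The shares over all tested genes were 13.5%, 8.29%, 22.3%, 22.3% and 17.5% in that order. CBP60G, an activator of salicylic acid synthesis genes, had 8.2 and 7.61 CPM under growth light against 28.5 and 24.8 under high light at 0.5 h, then 4.79 and 4.66 against 5.11 and 3.75 at 72 h. The high light group at 0.5 h lay above the other 3, and the difference was -1.86 (SE 0.34, adjusted p = 0.000235). WRKY54, a salicylic acid response factor, had 1.52 and 2.11 CPM under growth light against 1.95 and 1.79 under high light at 0.5 h, then 8.32 and 7.93 against 2.35 and 2.04 at 72 h. For WRKY54, the difference of effects was -1.94 (SE 0.36, adjusted p = 0.000285). EDS1, a hub of basal immunity, was the list's gene that turned, with 27.9 and 27.2 CPM under growth light against 63.5 and 62.3 under high light at 0.5 h, then 29.3 and 26.7 against 19.6 and 23.4 at 72 h. For EDS1, the difference of effects was -1.57 (SE 0.12, adjusted p = 1.56e-09).

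Most glucosinolate genes were lowered at 72 h. Of 22, 4 were raised and 5 lowered at 0.5 h, 0 were raised and 20 lowered at 72 h, and 17 had a lower difference, with a median of -0.85. All tested genes had shares of 13.5%, 8.29%, 22.3%, 22.3% and 17.5% in that order. CYP79F1, which starts aliphatic glucosinolate synthesis, had 161 and 137 CPM under growth light against 140 and 162 under high light at 0.5 h, then 132 and 121 against 26.7 and 30.1 at 72 h. The groups overlapped at 0.5 h and high light was far lower at 72 h, with a difference of -2.17 (SE 0.23, adjusted p = 2.63e-07). CYP81F2, which modifies indole glucosinolates in defence, had 3.48 and 7.61 CPM under growth light against 42.7 and 43.2 under high light at 0.5 h, then 3.88 and 5.2 against 5.18 and 3.91 at 72 h. High light was above growth light at 0.5 h and overlapped it at 72 h, with a difference of -2.96 (SE 0.46, adjusted p = 4.2e-05). MYB51, a regulator of the indole branch, had 9.99 and 12.2 CPM under growth light against 28.1 and 28.2 under high light at 0.5 h, then 8.89 and 8.11 against 6.73 and 6.37 at 72 h. For MYB51, the difference of effects was -1.72 (SE 0.20, adjusted p = 8.19e-07). Its 72 h effect lay at the edge of the threshold (adjusted p = 0.0499932). MYB34 and SOT16, an indole branch regulator and a sulfotransferase, turned with it, at 0.87 at 0.5 h and -0.45 at 72 h, and 0.28 at 0.5 h and -0.38 at 72 h.

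Few antenna and photosystem genes passed the test at 0.5 h, and most were lowered at 72 h. Of 21 antenna genes, 1 was raised and 0 lowered at 0.5 h, 2 were raised and 17 lowered at 72 h, and 17 had a lower difference, with a median of -1.60. Over all tested genes the shares were 13.5%, 8.29%, 22.3%, 22.3% and 17.5% in that order. LHCB2.2, a trimeric antenna protein, had 969 and 1290 CPM under growth light against 989 and 1010 under high light at 0.5 h, then 798 and 859 against 72 and 79.3 at 72 h. For LHCB2.2, the difference of effects was -3.27 (SE 0.26, adjusted p = 5.67e-09). LHCB2.3 had 1040 and 1270 CPM under growth light against 916 and 931 under high light at 0.5 h, then 880 and 939 against 36.5 and 47.8 at 72 h. For LHCB2.3, the difference of effects was -4.10 (SE 0.29, adjusted p = 8.9e-10). LHCB4.3, an isoform of a minor antenna protein, rose instead: it had 57.2 and 48.4 CPM under growth light against 50.5 and 54.7 under high light at 0.5 h, then 63.9 and 65.8 against 446 and 424 at 72 h. Its groups overlapped at 0.5 h and did not at 72 h, and the difference was 2.75 (SE 0.17, adjusted p = 1.16e-10). Of 28 photosystem and electron transport genes, 3 were lowered at 0.5 h and 24 at 72 h, and 23 had a lower difference. The 3 lowered at 0.5 h are near the 8.29% of all tested genes. At 72 h, 22.3% of all tested genes were lowered, and 17.5% had a lower difference. PSAN and PSAF, subunits of photosystem I on the side where plastocyanin docks, had differences of -2.32 (SE 0.18, adjusted p = 4.52e-09), and -2.28 (SE 0.16, adjusted p = 5.57e-10). FD1, a minor leaf ferredoxin, was the 1 member with a higher difference, at 0.66 (SE 0.11, adjusted p = 9.04e-05).

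Most chlorophyll synthesis genes were lowered at 72 h too. Of 20, 3 were lowered at 0.5 h and 16 at 72 h, and 14 had a lower difference and 1 a higher one. Over all tested genes, 8.29% were lowered at 0.5 h and 22.3% at 72 h. The difference was lower in 17.5% of all tested genes and higher in 13.1%. HEMA1, the first committed enzyme, had 232 and 301 CPM under growth light against 302 and 195 under high light at 0.5 h, then 310 and 277 against 50.3 and 49.7 at 72 h. For HEMA1, the difference of effects was -2.45 (SE 0.23, adjusted p = 4.48e-08). PORB, a light-dependent protochlorophyllide reductase, had 565 and 444 CPM under growth light against 417 and 406 under high light at 0.5 h, then 558 and 583 against 86.6 and 96.9 at 72 h. For PORB, the difference of effects was -2.34 (SE 0.17, adjusted p = 1.96e-09). Of 18 Calvin cycle and Rubisco genes, 8 were lowered at 72 h and 2 differed between times, RPE at -0.73 (SE 0.13, adjusted p = 0.000219) and RCA, the Rubisco activase, at -0.43 (SE 0.15, adjusted p = 0.038). A difference was thus called in 11.1% of this list, below the 30.6% of all tested genes. Leaving out any of 7 of the 8 libraries ended the call for RCA, with adjusted p up to 0.144, as did a filter of 1 CPM in 2 libraries (adjusted p = 0.0569). Of 18 cytosolic ribosomal protein genes, 11 were lowered at 72 h but 2 differed between times, RPL10C at 0.46 (SE 0.14, adjusted p = 0.0133) and AT3G59540 at -0.32 (SE 0.11, adjusted p = 0.0294). This list too had a called difference in 11.1%, against 30.6% of all tested genes. RPL10C lost its call without replicate 1 of growth or of high light at 72 h, and AT3G59540 without any of 6 of the 8 libraries, with upper-quartile scaling and with a filter of 1 CPM in 2 libraries.

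More photoprotection genes were raised at 72 h than at 0.5 h. Of 21, 6 were raised at 0.5 h and 13 at 72 h, and the difference was higher in 9 and lower in 3, with a median of 0.29. All tested genes were raised in 13.5% at 0.5 h and in 22.3% at 72 h. Their difference was higher in 13.1% and lower in 17.5%, near the share of the 3 lower ones here. ELIP1, an early light-induced protein thought to bind free chlorophyll, had 31.5 and 32.4 CPM under growth light against 128 and 154 under high light at 0.5 h, then 27.5 and 23.8 against 2610 and 2480 at 72 h. High light was above growth light in every library at both times, and the difference was 4.49 (SE 0.18, adjusted p = 2.27e-13). ELIP2 had 22 and 23.3 CPM under growth light against 73.3 and 91.4 under high light at 0.5 h, then 8.83 and 6.78 against 155 and 137 at 72 h. For ELIP2, the difference of effects was 2.35 (SE 0.26, adjusted p = 4.59e-07). PSBS, the sensor of heat dissipation, had 2230 and 2220 CPM under growth light against 2190 and 2310 under high light at 0.5 h, then 2070 and 2170 against 4270 and 4240 at 72 h. The groups overlapped at 0.5 h and high light was the higher at 72 h, with a difference of 0.99 (SE 0.12, adjusted p = 1.11e-06). FTSH8, a protease subunit of photosystem II repair, had 0.54 at 0.5 h and 1.72 at 72 h, and SIG5, a plastid sigma factor raised at both times, had the lower effect at 72 h, 2.14 at 0.5 h and 1.38 at 72 h.

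Most flavonoid and anthocyanin genes were raised at 72 h. Of 25, 5 were raised and 2 lowered at 0.5 h, 22 were raised and 1 lowered at 72 h, and 20 had a higher and 0 a lower difference, with a median of 1.89. The shares over all tested genes were 13.5%, 8.29%, 22.3%, 22.3%, 13.1% and 17.5% in that order. F3'H, which hydroxylates the flavonoid B ring, had 35.2 and 26.2 CPM under growth light against 23.8 and 23.6 under high light at 0.5 h, then 22.8 and 21.2 against 334 and 316 at 72 h. Its difference of effects was 4.26 (SE 0.24, adjusted p = 4.09e-11). DFR, the first enzyme of the anthocyanin branch, had 86.6 and 45.1 CPM under growth light against 50.8 and 52 under high light at 0.5 h, then 53.2 and 54.7 against 533 and 531 at 72 h. For DFR, the difference of effects was 3.66 (SE 0.29, adjusted p = 5.44e-09). CHS, chalcone synthase at the head of the pathway, had 687 and 662 CPM under growth light against 553 and 570 under high light at 0.5 h, then 403 and 401 against 1750 and 1600 at 72 h. For CHS, the difference of effects was 2.32 (SE 0.19, adjusted p = 8.03e-09). PAP1 and PAP2 are regulators of the pathway. PAP1 had 5.33 and 2.43 CPM under growth light against 10.7 and 12.8 under high light at 0.5 h, then 2.91 and 4.36 against 42.4 and 39.1 at 72 h, raised at both times, with a difference of 1.89 (SE 0.40, adjusted p = 0.000903), which became 1.22 (adjusted p = 0.0643) without replicate 1 of growth light at 0.5 h. PAP2 had 0.505 and 0.54 CPM under growth light against 0.544 and 0.47 under high light at 0.5 h, then 0.342 and 0.605 against 10.2 and 10.8 at 72 h, overlapping at 0.5 h, with a difference of 4.52 (SE 0.63, adjusted p = 9.53e-06). MYBL2, a repressor of the pathway, was lowered at both times, at -2.01 at 0.5 h and -0.86 at 72 h, with the difference called higher.

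Most carbohydrate genes were raised at 72 h too. Of 20 starch and sugar genes, 7 were raised at 0.5 h and 15 at 72 h, and the difference was higher in 11 and lower in 5. All tested genes had shares of 13.5%, 22.3%, 13.1% and 17.5% in that order. GPT2, which carries glucose 6-phosphate across the plastid envelope, had 0.281 and 0.108 CPM under growth light against 7.16 and 7.78 under high light at 0.5 h, then 0.627 and 0.666 against 300 and 310 at 72 h. It was above growth light at both times, and the difference of 3.63 (SE 1.18, adjusted p = 0.0224) rested on 0.281 and 0.108 CPM at the start, with an adjusted p of 0.351 without replicate 1 of growth light at 0.5 h. BAM5, a cytosolic beta-amylase, had 0.337 and 0.216 CPM under growth light against 0.679 and 0.769 under high light at 0.5 h, then 0.969 and 1.57 against 178 and 242 at 72 h. For BAM5, the difference of effects was 5.99 (SE 1.56, adjusted p = 0.00531), with an adjusted p of 0.0987 without that library. APL3 and APL4, subunits of the enzyme that makes ADP-glucose for starch, had effects of 0.86 at 0.5 h and 3.99 at 72 h, and 0.09 at 0.5 h and 3.69 at 72 h. Of 8 osmolyte genes, 5 had a lower difference, against 17.5% of all tested genes. GOLS2, galactinol synthase of the raffinose pathway, had 0.898 and 0.486 CPM under growth light against 31.3 and 34.9 under high light at 0.5 h, then 4.16 and 4.6 against 13.9 and 11.6 at 72 h. For GOLS2, the difference of effects was -4.04 (SE 0.38, adjusted p = 5.63e-08). RS5, raffinose synthase, turned, with 80.5 and 79.7 CPM under growth light against 191 and 187 under high light at 0.5 h, then 55.3 and 49.1 against 35.8 and 40 at 72 h. For RS5, the difference of effects was -1.70 (SE 0.14, adjusted p = 7.5e-09). P5CS1, the proline synthesis enzyme, had effects of 2.70 at 0.5 h and 2.18 at 72 h, while ERD5, which breaks proline down, turned at 0.39 at 0.5 h and -0.96 at 72 h.

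Dark-inducible genes were mixed, with 1 higher and 4 lower differences among 8, against 13.1% and 17.5% of all tested genes. DIN2, a beta-glucosidase of sugar starvation, had 3.76 and 4.16 CPM under growth light against 3.76 and 4.66 under high light at 0.5 h, then 1.03 and 0.605 against 22.6 and 27.5 at 72 h. For DIN2, the difference of effects was 4.84 (SE 0.48, adjusted p = 1.13e-07). DIN1, a senescence gene, had 2.41 and 14.1 CPM under growth light against 12.3 and 13.9 under high light at 0.5 h, then 10.3 and 12.5 against 1.68 and 1.71 at 72 h. For DIN1, the difference of effects was -3.40 (SE 0.83, adjusted p = 0.00336), or of -5.18 without replicate 2 of growth light at 0.5 h. Of 29 antioxidant genes, 11 had a higher and 9 a lower difference, against 13.1% and 17.5% of all tested genes. At 0.5 h, 4 were raised, a share near the 13.5% of all tested genes. GPX7, a plastid glutathione peroxidase, had 9.15 and 13.9 CPM under growth light against 23.6 and 23.9 under high light at 0.5 h, then 5.81 and 4.78 against 70 and 65.1 at 72 h. For GPX7, the difference of effects was 2.63 (SE 0.22, adjusted p = 1.22e-08). CAT3, a catalase, had 457 and 500 CPM under growth light against 454 and 351 under high light at 0.5 h, then 962 and 1000 against 188 and 189 at 72 h. For CAT3, the difference of effects was -2.13 (SE 0.23, adjusted p = 2.77e-07). APX1, the cytosolic ascorbate peroxidase, had 443 and 516 CPM under growth light against 534 and 376 under high light at 0.5 h, then 574 and 563 against 423 and 387 at 72 h, and its difference of -0.41 (SE 0.18, adjusted p = 0.0815) did not pass, though it did without replicate 2 of high light at 0.5 h (-0.65, adjusted p = 0.00447) or replicate 2 of growth light at 0.5 h (-0.53, adjusted p = 0.0424).

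**Figure D5:**
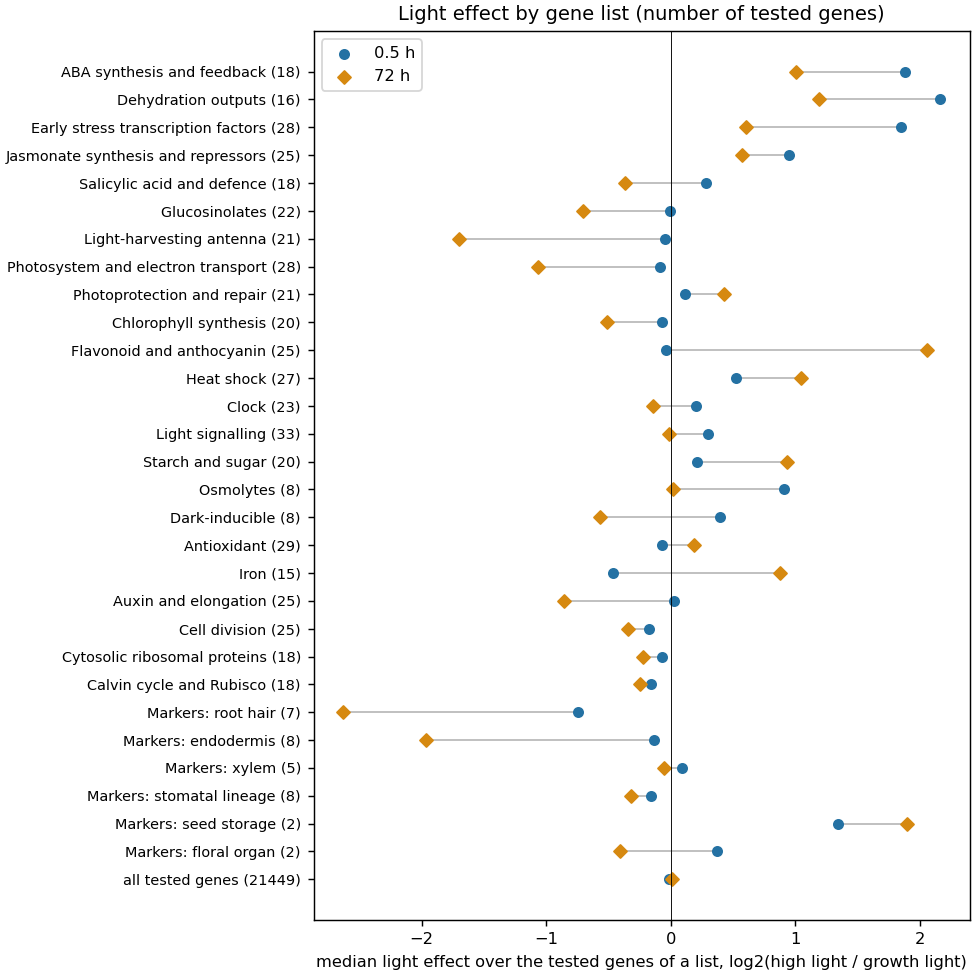
Median light effect (horizontal axis, log2 of high light over growth light) over the tested members of each gene list at 0.5 h (blue circles) and 72 h (orange diamonds), with the number of tested genes in brackets and all tested genes at the bottom. The abscisic acid, dehydration and early transcription factor lists lie to the right at 0.5 h and closer to 0 at 72 h, the antenna and root marker lists fall to between -1.70 and -2.63 at 72 h, and the flavonoid list moves from -0.04 to 2.06.

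Heat shock genes were raised in part at 0.5 h and mostly at 72 h. Of 27, 11 were raised at 0.5 h and 19 at 72 h, and the difference was higher in 9 and lower in 4. Over all tested genes, 13.5% were raised at 0.5 h and 22.3% at 72 h. The difference was higher in 13.1% of all tested genes and lower in 17.5%, near the share of the 4 lower ones here. HSP101, the heat-induced disaggregase, had 14.3 and 13.7 CPM under growth light against 23.8 and 22.9 under high light at 0.5 h, then 16.4 and 17.8 against 29.9 and 29.7 at 72 h. High light was above growth light in every library at both times, and the difference of 0.06 (SE 0.23, adjusted p = 0.872) did not pass. HSFA2, the factor that sustains the heat response, had 0.955 and 0.162 CPM under growth light against 5.66 and 3.55 under high light at 0.5 h, then 0.798 and 0.787 against 10.9 and 12.4 at 72 h, and its difference of 0.83 (SE 0.72, adjusted p = 0.418) did not pass and changed sign, to -0.90, without replicate 1 of growth light at 0.5 h. HSP90.1 and HSP70 rose further, with 0.52 at 0.5 h and 3.01 at 72 h, and 0.91 at 0.5 h and 2.38 at 72 h. HSFA6B and HSFA3, heat shock factors, were not past the test at 72 h, with 2.37 at 0.5 h and -0.10 at 72 h, and 2.01 at 0.5 h and 0.06 at 72 h. Small heat shock proteins are a family of close copies, so reads may be split among them.

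Fewer clock and light signalling genes were raised at 72 h than at 0.5 h. Of 23 clock genes, 11 were raised and 1 lowered at 0.5 h, and 3 were raised and 6 lowered at 72 h. The shares over all tested genes were 13.5%, 8.29%, 22.3% and 22.3% in that order. The difference was lower in 14 clock genes and higher in 1, against 17.5% and 13.1% of all tested genes. CCA1, a morning clock component, had 132 and 163 CPM under growth light against 270 and 284 under high light at 0.5 h, then 108 and 110 against 119 and 117 at 72 h. It was raised at 0.5 h and not past the test at 72 h, with a difference of -0.78 (SE 0.13, adjusted p = 6.09e-05). PRR9, a light-induced repressor of CCA1, had 3.87 and 5.89 CPM under growth light against 34.6 and 31.8 under high light at 0.5 h, then 4.27 and 4.66 against 13.3 and 9.59 at 72 h. For PRR9, the difference of effects was -1.42 (SE 0.27, adjusted p = 0.000413). CHE, a repressor of CCA1, was lowered at both times, with 28.1 and 36.3 CPM under growth light against 20.2 and 18.4 under high light at 0.5 h, then 27.5 and 25.8 against 4.51 and 4.29 at 72 h. For CHE, the difference of effects was -1.86 (SE 0.21, adjusted p = 6.87e-07). RVE7 had 3.37 and 6.16 CPM under growth light against 5.12 and 5.85 under high light at 0.5 h, then 4.05 and 4.78 against 2.02 and 1.45 at 72 h. For RVE7, the difference of effects was -1.57 (SE 0.41, adjusted p = 0.0053). Of 33 light signalling genes, 15 were raised and 8 lowered at 0.5 h, and 11 were raised and 12 lowered at 72 h. A lower difference was called in 16 of them and a higher one in 3. BBX30 and BBX32, small B-box proteins, had differences of -3.03 (SE 0.40, adjusted p = 5.74e-06), and -1.52 (SE 0.18, adjusted p = 1.2e-06), and BBX16 had -1.94 (SE 0.22, adjusted p = 5.32e-07). PIF4, a growth-promoting factor that light holds down, had 31.3 and 50.6 CPM under growth light against 24.5 and 27.1 under high light at 0.5 h, then 32.9 and 33.8 against 9.42 and 9.59 at 72 h. It was lowered at both times and more at 72 h, with a difference of -1.14 (SE 0.25, adjusted p = 0.0014). HY5, a central factor of light responses, had 22 and 23.4 CPM under growth light against 51 and 48.5 under high light at 0.5 h, then 21.5 and 21.6 against 38.2 and 33.7 at 72 h, and its difference of -0.39 (SE 0.14, adjusted p = 0.0377) lay near the threshold: the adjusted p was 0.0576 with upper-quartile scaling, 0.0542 with a filter of 1 CPM in 2 libraries, 0.065 with DESeq2, and up to 0.151 without any of 5 single libraries.

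More growth and division genes were lowered at 72 h than at 0.5 h, as was so for all tested genes (22.3% against 8.29%). Of 25 auxin and elongation genes, 9 were raised and 4 lowered at 0.5 h, 3 raised and 16 lowered at 72 h, and 16 had a lower difference, with a median of -1.46. Raised genes were 13.5% of all tested genes at 0.5 h and 22.3% at 72 h. EXPA8, an expansin that loosens cell walls, had 42.5 and 45.1 CPM under growth light against 15.5 and 15.3 under high light at 0.5 h, then 59.7 and 63.9 against 1.21 and 0.911 at 72 h. It was lowered at both times, and the difference was -4.37 (SE 0.28, adjusted p = 2.83e-10). EXPA1 had 207 and 215 CPM under growth light against 187 and 190 under high light at 0.5 h, then 264 and 245 against 67.1 and 68.7 at 72 h, not past the test at 0.5 h, with a difference of -1.75 (SE 0.14, adjusted p = 7.5e-09). IAA2, IAA19 and EXPA11 turned from raised to lowered, with 1.12 at 0.5 h and -0.60 at 72 h, 0.70 at 0.5 h and -0.86 at 72 h, and 0.43 at 0.5 h and -0.81 at 72 h. Of 25 cell division genes, 5 were lowered at 0.5 h and 14 at 72 h, with 7 lower differences (28%, against 17.5% of all tested genes). CYCB1;2, a mitotic cyclin, had 33.5 and 23.8 CPM under growth light against 26.7 and 29.1 under high light at 0.5 h, then 30.2 and 27.3 against 19.2 and 17.1 at 72 h. For CYCB1;2, the difference of effects was -0.63 (SE 0.16, adjusted p = 0.00497), or of -0.41 without replicate 2 of growth light at 0.5 h. CYCB1;4 had -0.78 (SE 0.16, adjusted p = 0.000664), and AUR2, a mitotic kinase, -0.72 (SE 0.21, adjusted p = 0.0125), which was lost without any of 4 single libraries.

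Over the 523 tested genes of all lists, 15 turned from raised to lowered (2.87%, against 1.6% of all tested genes) and 5 from lowered to raised (0.956%, against 0.587%). The 15 were spread over 8 lists, with 4 in auxin and elongation, 3 in glucosinolates and 3 in osmolytes, and the 5 were all in the iron list.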

How the data were processed

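Stranded mRNA libraries of pooled whole seedlings were sequenced as single-end reads on a HiSeq 2500, per the labels' protocols. The authors deposited raw read counts per gene, 1 table per library. TopHat2 2.1.1, HTSeq 0.6.0, edgeR and build TAIR10 are named in the submitters' processing notes. The sources used here do not state their roles, the strand setting or how reads shared by near-identical copies were handled.

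From the deposited counts, 1 edgeR 4.0.16 quasi-likelihood model (R 4.3.3) was fitted to all 26 libraries in 13 groups, so that groups share 1 estimate of spread (13 residual degrees of freedom), with TMM factors (0.9243 to 1.09 in the 8 libraries) and the default expression filter at a minimum count of 10. This left 21449 genes. P-values were adjusted by Benjamini-Hochberg over all of them. Counting intervals are exact, at 95%, and cover counting error only. The procedure was tested on simulated data.

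Genes were named by rule: the 5 largest differences in each direction, the 8 genes of each turning set with the largest smaller effect, the 2 largest differences in each list (all with a group mean of at least 5 CPM), and a fixed set of well-known genes; others are list members named after their values were seen. The comparison, lists and rule were chosen with earlier results of these data known. Promoter windows come from TAIR10.1 by locus identifier. Alternatives were other scaling factors, filters and tools, a replicate block, the 8 libraries alone and each library left out; 2 were added after seeing the data, thinned counts and a crossed replicate block.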

Additional observations from a re-analysis of the deposited data

Results flagged for a closer look

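In 18 of the genes named by rule, every high light library lay on one side of growth light at 0.5 h and on the other at 72 h, with both effects and their difference past the edgeR quasi-likelihood test. Other genes that turned, such as BTS, PYE, PUB18, COR47 and EDS1 of the lists, are not counted among them. The genes were chosen for turning, so this is a description, and groups of 2 libraries allow no check for a single odd library. The difference of effects (log2) was -6.02 in PP2-A5, -5.43 in AT1G24147, -3.86 in AT5G28630, -3.72 in AT5G54720, -3.69 in AT4G18205, -3.60 in IGMT1, -3.53 in CRK41 and -3.29 in AT1G10340. It was -1.72 in MYB51 and -1.70 in RS5. In the other direction it was 2.17 in SPL4, 2.2 in AT5G38000, 2.31 in SAUR36, 2.71 in AT5G65040, 3.15 in AT4G31330, 3.3 in BHLH101, 3.68 in BGLU28 and 3.71 in BHLH100.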

How the results depend on the processing

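Requiring a 2-fold change left 2407 differences of effects (703 higher, 1704 lower), 1332 light effects at 0.5 h (1017 and 315) and 2863 at 72 h (1194 and 1669), with 44 and 9 turning genes. Leaving out 1 library gave 5287 to 6355 differences (2123 to 2621 higher, 3102 to 3734 lower), 3407 to 4598 effects at 0.5 h (2299 to 2876 higher, 1108 to 1722 lower), 7552 to 9856 at 72 h (3645 to 4924 higher, 3867 to 4934 lower), 263 to 423 genes raised then lowered and 69 to 161 lowered then raised. The lowered-then-raised set held 190 genes with upper-quartile factors (113 shared with the 126) and 196 with a filter of 1 CPM in 2 libraries (125 shared); the cause was not tested. DESeq2 gave 269 and 96 turning genes, of which 264 and 87 were shared, and counts thinned to the smallest library, an alternative chosen after seeing the data, gave 309 and 99. Without 1 library, the difference for HSFA2 ranged from -0.90 (without replicate 1 of growth light at 0.5 h) to 1.62, and for HSP101 from -0.0089 (without replicate 1 of growth light at 72 h) to 0.125.

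Same-numbered libraries did not deviate together (r from -0.17 to 0.03 over 6 pairs of groups), so the numbers were not read as pairs. With the replicate block, 339 genes were raised then lowered (334 shared) and 124 lowered then raised (116 shared). The crossed pairing, chosen after seeing the data, gave 344 and 134.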
